A study of Mus musculus with 4 samples.

Results

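Lymphoma cells that carried transcripts of the division markers Mki67 and Top2a were compared with lymphoma cells of the same spleen that carried none. Lymphoma barcodes were those without a Cd3e UMI that held the immunoglobulin V segments of the dominant clone: at least 10 UMIs of Igkv3-1 and at least 10 summed over Ighv9-1, Ighv9-3 and Ighv1-11 in the pBIC10 library, and at least 10 UMIs each of Ighv2-9 and Igkv8-30 in the pBIC library. A UMI (unique molecular identifier) stands for 1 captured transcript molecule. A lymphoma barcode was called dividing with at least 3 UMIs of Mki67 and Top2a together, and non-dividing with 0. The rule found 1731 lymphoma barcodes among 14991 in pBIC10, of which 654 were dividing and 493 non-dividing, and 1951 among 18129 in pBIC, of which 946 were dividing and 404 non-dividing. The 2497 barcodes of both classes were part of 33120 in the series, and the remaining 584 lymphoma barcodes of pBIC10 and 601 of pBIC, with 1 or 2 UMIs of the marker pair, belonged to neither class.

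The series compared the spleen of 1 female pBIC10 mouse with that of 1 female pBIC mouse, both models of diffuse large B-cell lymphoma; the labels name the genotypes without spelling out their alleles. Live cells (7AAD-) had been sorted by GFP and recombined at 20% GFP+ lymphoma cells and 80% GFP- cells, so the sort set the share of lymphoma cells in each library. Droplet 5' gene expression libraries were read as UMI counts over 32285 genes, with 147884282 UMIs in the pBIC10 library and 166941618 in the pBIC library. Transcripts of GFP were not among the features, and the clone segments took its place. Each genotype has 1 mouse and 1 gene expression library, so values are given with 95% intervals of counting error only and no p-value. A difference between the genotypes cannot be told apart from one between the mice or their libraries. Separate TCR libraries served here only to mark T cells. Barcodes of 1 library share their animal, sort and library and are not replicates.

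A cell that divides first licenses its replication origins by loading the MCM helicase, then copies its DNA while making nucleotides and histones, and then builds a spindle under the control of cyclin B with Cdk1, the Aurora kinases and Plk1. The anaphase-promoting complex with Cdc20 ends mitosis by destroying cyclins. Many genes of DNA synthesis are driven by E2F factors, released when cyclin D and cyclin E kinases inactivate the RB family. Many mitotic genes have a CCAAT box and a nearby cell cycle genes homology region (CHR). The CHR is read by the DREAM, B-MYB and FOXM1 complexes. Mki67 encodes a protein of the mitotic chromosome surface, Top2a encodes the topoisomerase that untangles sister chromatids, and both are made chiefly from S phase to mitosis, so cells in G1 can lack them.

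The promoters of both marker genes and of 3 genes of licensing and mitosis are shown, because they carry the sequence words counted over the lists after them. Each line runs 5′ to 3′ from 200 bases before to 30 bases after the RefSeq start site (GRCm38.p6): Mki67 at chr7:135716350-135716579, Top2a at chr11:99024160-99024389, Ccnb1 at chr13:100786457-100786686 and Cdc20 at chr4:118437314-118437543 on the minus strand, and Mcm5 at chr8:75109309-75109538 on the plus strand. Capitals mark CCAAT, the CHR words TTTGAA and TTCGAA, and the E2F words TTTCCCGC, TTTGGCGC, TTTCGCGC and TTTGCCGC, each on either strand; in Mcm5 a pair of E2F words on opposite strands overlap.
Mki67: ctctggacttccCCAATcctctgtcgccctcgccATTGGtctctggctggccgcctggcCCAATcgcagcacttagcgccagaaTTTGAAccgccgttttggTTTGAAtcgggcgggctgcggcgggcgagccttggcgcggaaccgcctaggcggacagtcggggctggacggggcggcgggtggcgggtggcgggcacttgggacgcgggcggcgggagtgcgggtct
Top2a: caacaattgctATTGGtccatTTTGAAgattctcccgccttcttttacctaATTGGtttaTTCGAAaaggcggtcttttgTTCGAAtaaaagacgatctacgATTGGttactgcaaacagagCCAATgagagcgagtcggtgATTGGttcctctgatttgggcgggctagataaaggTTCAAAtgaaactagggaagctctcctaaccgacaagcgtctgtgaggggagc
Ccnb1: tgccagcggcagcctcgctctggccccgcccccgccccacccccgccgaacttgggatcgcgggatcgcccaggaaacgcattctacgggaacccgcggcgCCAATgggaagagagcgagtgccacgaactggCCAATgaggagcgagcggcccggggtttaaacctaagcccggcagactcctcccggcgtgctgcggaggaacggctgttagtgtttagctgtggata
Cdc20: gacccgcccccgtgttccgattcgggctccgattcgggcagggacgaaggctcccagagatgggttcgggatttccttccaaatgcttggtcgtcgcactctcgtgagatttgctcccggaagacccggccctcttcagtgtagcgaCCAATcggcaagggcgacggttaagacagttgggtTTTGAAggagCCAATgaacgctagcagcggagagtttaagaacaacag
Mcm5: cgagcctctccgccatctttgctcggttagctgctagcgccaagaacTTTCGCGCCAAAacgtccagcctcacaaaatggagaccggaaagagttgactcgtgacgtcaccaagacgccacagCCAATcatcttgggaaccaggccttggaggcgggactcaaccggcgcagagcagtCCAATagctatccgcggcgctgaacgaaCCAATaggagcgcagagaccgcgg

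Mki67 held 3 CCAAT boxes and 2 TTTGAA words, Top2a held 5 CCAAT boxes with 2 TTTGAA and 2 TTCGAA words, and Cdc20 held 2 CCAAT boxes and 1 TTTGAA word. Ccnb1 held 2 CCAAT boxes and neither CHR word, while Mcm5 held 3 CCAAT boxes and 2 E2F words. The windows of Plk1, Pcna and Rrm2 were also read and are not shown. Each held 1 CCAAT box and no CHR or E2F word. Over the whole windows of 250 bases before to 50 after the start site, CCAAT together with a CHR word was present in 10 of 16 promoters (62.5%) of the list of mitotic cyclins and kinases and in 23 of 48 (47.9%) of the list of spindle, kinetochore and cytokinesis genes, against 6.14% of 7087 promoters of all genes measured in both libraries and 7.52% of all 32851 promoters in the table. An E2F word was present in 8 of 17 promoters (47.1%) of the origin licensing list and 10 of 36 (27.8%) of the DNA synthesis list, against 4.47% for the measured genes and 2.26% for the whole table. Of the 24 histone promoters 23 (95.8%) held a CCAAT box, against 38% for the measured genes, and 11 (45.8%) held it with a CHR word, close to the share of the spindle list. The words did not go with direction alone: CCAAT was also present in 7 of 9 promoters (77.8%) of the MHC class II list, whose genes lay below 0 in the comparison, though none of the 9 held a CHR or E2F word. Promoters were matched by symbol or by an older RefSeq name for 449 of 537 genes that were higher in dividing barcodes of both libraries (described further on), and 85 of their 536 promoters (15.9%) held CCAAT with a CHR word and 74 (13.8%) an E2F word. A match of letters is a description and not a binding site.

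Dividing barcodes made up 37.78% (Clopper-Pearson interval 35.49 to 40.11) of lymphoma barcodes in pBIC10 and 48.49% (46.25 to 50.73) in pBIC. They held more UMIs than non-dividing barcodes: the median was 35685 UMIs in dividing and 12757 in non-dividing barcodes of pBIC10, and 20270.5 in dividing and 12933.5 in non-dividing barcodes of pBIC. The rule itself favours deep barcodes as dividing and shallow ones as non-dividing. How much of this gap reflects RNA content was not tested. A deeper barcode reaches 3 marker UMIs more easily, so the share was also taken after drawing 5000 UMIs from each barcode, which left out 84 pBIC10 and 27 pBIC barcodes. It was then 10.75% (9.29 to 12.3) in pBIC10 and 28.17% (26.17 to 30.24) in pBIC, a wider gap than at full depth. Summed over all lymphoma barcodes, Mki67 and Top2a together reached 231.7 counts per 1000000 UMIs (CPM) in pBIC10 and 660.6 CPM in pBIC. Barcodes with at least 20 neutrophil marker UMIs and none of B-lineage markers, Cd3e or clone segments were set beside them. Mature neutrophils no longer divide, but the markers do not separate mature from immature ones, so this set is not a sure non-dividing reference. The pair reached 191.4 CPM in those of pBIC10 and 210.4 CPM in those of pBIC. Neutrophil-marker barcodes met the rule in 8 of 174 cases (4.60%) in pBIC10 and 2 of 78 (2.56%) in pBIC, at medians of 3426.5 and 3342.5 UMIs. Drawing 5000 UMIs left out 109 of them in pBIC10 and 61 in pBIC, so only the deeper ones remained. Of these, 7 of 65 (10.8%, 4.44 to 20.9) met it in pBIC10 and 1 of 17 (5.88%, 0.149 to 28.7) in pBIC. By the share with 3 or more marker UMIs at that depth, lymphoma barcodes were thus not above neutrophil-marker barcodes in pBIC10, and in pBIC the intervals overlapped. The share with 0 marker UMIs at the same depth was lower in lymphoma barcodes, at 59.68% (57.27 to 62.06) against 78.46% (66.51 to 87.69) of neutrophil-marker barcodes in pBIC10 and 42.57% (40.34 to 44.81) against 82.35% (56.57 to 96.2) in pBIC, and these intervals were apart in both libraries. How much of the marker signal in neutrophil-marker barcodes is free RNA was not tested. With 2000 UMIs drawn, the lymphoma share was 2.89% (2.16 to 3.80) in pBIC10, against 0.714% (0.0181 to 3.92) of neutrophil-marker barcodes, and 13.5% (12.0 to 15.1) in pBIC, against 1.45% (0.0367 to 7.81), so the intervals were apart in pBIC and overlapped in pBIC10. T cells, taken as barcodes with TCR contigs, Cd3e UMIs and no UMI of B-lineage markers, met the rule in 18.18% of cases in pBIC10 and 21.69% in pBIC, and in 13.8% and 21.49% after drawing 5000 UMIs. Lymphoma barcodes had no filter on markers of other lineages apart from Cd3e. Without those of at least 50 UMIs of markers of other cell types, the share as deposited was 37.01% in pBIC10 and 48.18% in pBIC. Without those of at least 3 such UMIs it was 35.71% of 14 barcodes left in pBIC10 and 46.82% of 598 in pBIC. The effect on the shares after drawing UMIs was not tested.

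**Figure D1:**
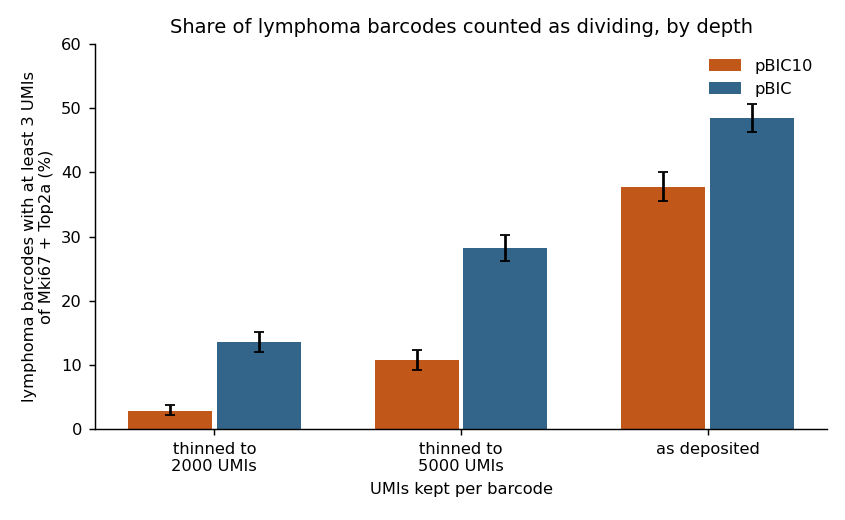
Share of lymphoma barcodes with at least 3 UMIs of Mki67 and Top2a (%, y axis) after drawing 2000 or 5000 UMIs per barcode and as deposited (x axis), for pBIC10 and pBIC; bars are shares and whiskers Clopper-Pearson intervals. The pBIC10 bar lies below the pBIC bar at each depth, at 2.89% against 13.5% with 2000 UMIs and 37.78% against 48.49% as deposited.

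Because of the depth gap, dividing and non-dividing barcodes were paired one to one on total UMIs, within 0.2 on the log2 scale. This gave 278 pairs in pBIC10, with medians of 22157 UMIs in dividing and 20193.5 in non-dividing barcodes, and 404 pairs in pBIC, with medians of 14818.5 and 12933.5. Unless stated otherwise, levels and ratios below are sums over these pairs in CPM, and a log2 ratio above 0 means higher in dividing barcodes. The values of Mki67 and Top2a chose the classes and are given only as a description: Mki67 had 220.2 CPM in dividing barcodes of pBIC10 and 448.1 CPM in those of pBIC, Top2a had 163.9 and 336.1 CPM, and both were at 0 in non-dividing barcodes by rule. When each marker was measured in barcodes chosen by the other, Top2a had 129.9 CPM in barcodes with at least 3 Mki67 UMIs against 30.90 CPM in matched barcodes with none in pBIC10 (log2 ratio 2.07), and 412.7 against 43.55 CPM in pBIC (3.24). Mki67, measured in barcodes chosen by Top2a, had 311.4 against 79.13 CPM in pBIC10 (1.98) and 702.8 against 79.33 CPM in pBIC (3.15). These comparisons had pairs of their own, 270 in pBIC10 and 441 in pBIC when chosen by Mki67, and 257 and 485 when chosen by Top2a. The edge of the rule was read over all lymphoma barcodes without matching. Those with 3 marker UMIs had 497.3 CPM of the origin licensing list and those with 2 had 340.0 CPM in pBIC10, and 662.1 and 451.9 CPM in pBIC.

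The lymphoma label was checked against lineage markers. The 6 B-lineage markers summed to 1247 CPM in dividing and 2061 CPM in non-dividing barcodes of pBIC10, and to 4189 and 5403 CPM in pBIC. The 8 T-cell markers summed to 352.1 CPM in dividing and 602.3 CPM in non-dividing barcodes of pBIC10, against 91.08 and 97.58 CPM in pBIC. The pBIC10 value was mostly Cd8b1, a CD8 coreceptor chain, which had 280.3 CPM in dividing and 478.0 CPM in non-dividing barcodes and was present in 92.09% and 97.48% of them, while in pBIC it had 3.65 and 4.89 CPM. Markers of other cells were unevenly spread over pairs. Monocyte and macrophage markers summed to 254.2 CPM in dividing and 832.1 CPM in non-dividing barcodes of pBIC10, and to 65.37 and 201.1 CPM in pBIC; the medians were 2 and 3 UMIs per barcode in pBIC10 and 1 and 1 in pBIC, and single barcodes reached 2133 and 324 UMIs. Neutrophil markers summed to 208.9 CPM in dividing and 743.3 CPM in non-dividing barcodes of pBIC10 (log2 ratio -1.83), and went the other way in pBIC, with 337.2 and 262.7 CPM (0.36); single barcodes reached 1700 and 1284 UMIs. Progenitor and mast cell markers summed to 152.5 CPM in dividing and 3.91 CPM in non-dividing barcodes of pBIC10, with 819 UMIs in a single barcode, and erythroid markers to 137.3 and 78.64 CPM. Leaving out the 126 pBIC10 and 31 pBIC lymphoma barcodes with at least 50 UMIs of other-type markers brought the macrophage sums to 128.6 and 145.4 CPM in pBIC10 and to 56.78 and 81.94 CPM in pBIC, and the neutrophil sums to 95.83 and 113.1 CPM in pBIC10 and to 20.93 and 27.01 CPM in pBIC, and each result was recomputed from the 260 and 399 pairs that remained. Other-type markers were the T-cell, NK, monocyte and macrophage, neutrophil, dendritic, erythroid, megakaryocyte, and progenitor and mast cell markers, Cd8b1 included. Leaving out barcodes by these markers lowers the sums of the same markers partly by rule. The part of the remaining other-type transcripts in the results was not tested. Only 4 lymphoma barcodes occurred in both libraries.

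Among 7400 genes with at least 100 UMIs in the pBIC10 pairs, 1354 (18.3%) were at least 1.5-fold higher and 286 (3.86%) at least 1.5-fold lower in dividing barcodes. Among 7955 such genes in pBIC, 824 (10.4%) were higher and 452 (5.68%) lower. These shares are the background for all counts of list members below. The median gene shifted by 0.20 in pBIC10 and 0.01 in pBIC on the log2 scale, and with TMM scaling, which sets the bulk of genes to no change, the counts were 815 higher and 488 lower in pBIC10 and 873 and 401 in pBIC. Of 6906 genes measured in both libraries, 537 (7.78%) were higher in both and 66 (0.956%) lower in both, while 10 (0.145%) were higher in pBIC10 and lower in pBIC and 3 (0.0434%) the reverse. The 537 shared genes were 41.5% of those higher in pBIC10 and 77.16% of those higher in pBIC, and the 66 were 34.55% and 21.78% of those lower. Across genes the log2 ratios of the libraries had a Pearson r of 0.771 and a Spearman rho of 0.629, and 0.651 and 0.598 over the 6491 genes in none of the 27 lists used here; genes are not independent replicates.

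**Figure D2:**
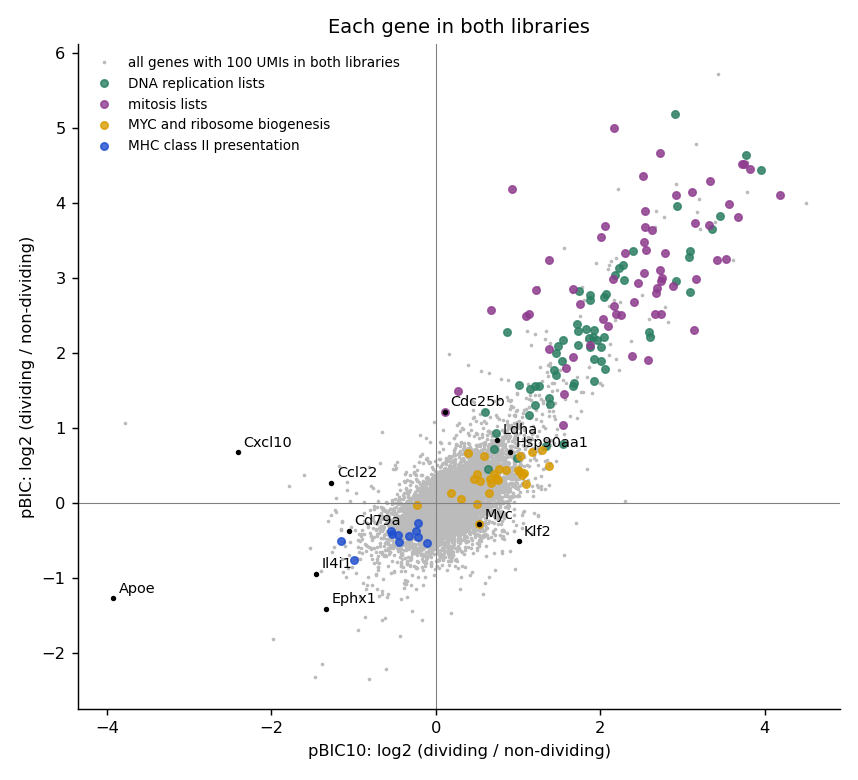
Each point is a gene with at least 100 UMIs in the pairs of both libraries, placed by its log2 ratio of dividing to non-dividing barcodes in pBIC10 (x axis) and pBIC (y axis); colours mark gene lists and black points named genes. Genes of the replication and mitosis lists fill the upper right, the MHC class II genes lie below 0 on both axes, and Klf2 lies at 1.01 in pBIC10 and -0.50 in pBIC.

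Origin licensing genes were higher throughout. All 14 members with at least 100 UMIs passed 1.5-fold in pBIC10 and all 19 in pBIC, where 18.3% and 10.4% of all genes did, with median log2 ratios of 1.73 and 2.11. The list has 20 members, and those below 100 UMIs were not counted in this or any other list. The list summed to 1018 CPM in dividing and 284.2 CPM in non-dividing barcodes of pBIC10 (log2 1.84, interval 1.76 to 1.92), and to 1214 and 325.9 CPM in pBIC (1.90, 1.82 to 1.97). Mcm5, a subunit of the replicative helicase, had 89.92 CPM in dividing and 14.95 CPM in non-dividing barcodes of pBIC10, and 112.3 and 23.17 CPM in pBIC. Cdc45, which joins the helicase when an origin fires, had 26.15 and 2.38 CPM in pBIC10 and 35.86 and 2.53 CPM in pBIC, the largest mean ratio of the list members measured in both libraries. Gins4 was at the other end, with log2 ratios of 0.99 and 0.60.

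Genes of DNA synthesis and nucleotide supply behaved alike, with 34 of 34 measured members past 1.5-fold in pBIC10 (median 1.795) and 32 of 33 in pBIC (median 2.08). Rrm2, the regulated subunit of ribonucleotide reductase, had 106.0 CPM in dividing and 6.79 CPM in non-dividing barcodes of pBIC10 (log2 3.96, 3.503 to 4.46), and 113.6 and 5.25 CPM in pBIC (4.44, 3.90 to 5.03). Pclaf, a PCNA-binding factor, had 284.5 and 37.88 CPM in pBIC10 (2.91) and 449.0 and 12.31 CPM in pBIC (5.19, 4.84 to 5.56). The sliding clamp Pcna itself differed less, with 115.0 and 39.75 CPM in pBIC10 (1.53) and 162.8 and 43.63 CPM in pBIC (1.90). Pold1, the catalytic subunit of polymerase delta, was the exception in pBIC, at 125.0 and 91.06 CPM (0.46), and had a log2 ratio of 0.64 in pBIC10. Of the 33 members measured in both libraries 28 had the larger log2 ratio in pBIC.

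The replication-dependent histones, whose transcripts are made in S phase, were higher in 14 of 14 measured members in pBIC10 (median 1.99) and 18 of 18 in pBIC (median 2.31). Their sum was 730.7 CPM in dividing and 161.9 CPM in non-dividing barcodes of pBIC10 (2.17, 2.07 to 2.28), and 2927 and 491.9 CPM in pBIC (2.57, 2.52 to 2.63). The linker histone Hist1h1b had 131.2 and 15.46 CPM in pBIC10 and 470.8 and 48.34 CPM in pBIC, and the core histone Hist1h2ae had 81.82 and 7.98 CPM in pBIC10 and 386.8 and 30.78 CPM in pBIC. Members of this family share near-identical sequence, so the split of UMIs among them is uncertain and the sum is the firmer value.

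Mitotic cyclins and kinases had the largest medians after the spindle genes in pBIC10 and the largest of all 27 lists in pBIC. In pBIC10 17 of 19 measured members passed 1.5-fold (median 2.47) and in pBIC 21 of 21 (median 3.24). Plk1 had 55.51 CPM in dividing and 3.06 CPM in non-dividing barcodes of pBIC10 (4.18, 3.502 to 4.95), and 78.07 and 4.53 CPM in pBIC (4.11, 3.53 to 4.75). Cdk1 had 110.9 and 7.81 CPM in pBIC10 and 154.2 and 7.06 CPM in pBIC, and its partner Ccna2 had 99.10 and 7.47 CPM in pBIC10 and 165.8 and 7.24 CPM in pBIC. Ccnb1, the mitotic cyclin, had 144.7 and 21.57 CPM in pBIC10 (2.75) and 66.16 and 8.51 CPM in pBIC (2.96).

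The pair of members short of 1.5-fold in pBIC10 were regulators of the Cdk1 switch. Cdc25b, a phosphatase that activates Cdk1, had 139.9 CPM in dividing and 129.8 CPM in non-dividing barcodes of pBIC10 (0.11, -0.03 to 0.25), whereas in pBIC it had 28.72 and 12.31 CPM (1.22, 0.81 to 1.65). Wee1, the kinase that opposes it, had 24.93 and 20.72 CPM in pBIC10 (0.27, -0.08 to 0.62) and 46.49 and 16.47 CPM in pBIC (1.497, 1.15 to 1.85). The intervals of the libraries did not overlap for either gene. The summed level of the list in non-dividing barcodes was 377.1 CPM in pBIC10 pairs and 174.5 CPM in pBIC pairs, with Cdc25b contributing 129.8 and 12.31 CPM.

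All measured spindle, kinetochore and cytokinesis genes passed 1.5-fold, 44 in pBIC10 (median 2.53) and 49 in pBIC (median 2.91). Kif11, the motor that separates spindle poles, had 46.34 CPM in dividing and 3.91 CPM in non-dividing barcodes of pBIC10 and 86.32 and 5.43 CPM in pBIC. The tubulin gene Tubb5 was the smallest difference in pBIC10, with 897.0 and 564.2 CPM (0.67), but had 1358 and 227.2 CPM in pBIC (2.58), and Stmn1, a tubulin-binding protein, had 113.6 and 25.31 CPM in pBIC10 (2.17) and 365.7 and 11.41 CPM in pBIC (5.003). For both genes the level in non-dividing barcodes was higher in pBIC10 than in pBIC.

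The anaphase-promoting complex was divided by role. Its co-activator Cdc20 had 102.3 CPM in dividing and 9.68 CPM in non-dividing barcodes of pBIC10 and 151.1 and 11.22 CPM in pBIC, its ubiquitin-conjugating enzyme Ube2c had 210.9 and 23.44 CPM in pBIC10 and 346.1 and 12.49 CPM in pBIC, and its inhibitor Fbxo5 had log2 ratios of 3.78 and 4.55. The core subunits stayed between 0.03 and 0.80, from Anapc4 in pBIC to Anapc11 in pBIC, so 6 of 16 list members passed 1.5-fold in pBIC10 and 9 of 16 in pBIC. Securin (Pttg1) had 38.85 and 38.22 CPM in pBIC10 (0.02) and 75.05 and 70.60 CPM in pBIC (0.09). Condensin and cohesin genes passed in 15 of 18 members in pBIC10 (median 1.45) and 13 of 18 in pBIC (median 1.35), led by the cohesin acetyltransferase Esco2 at 3.79 and 4.15, with the cohesin release factor Wapl at 0.49 and 0.30. Chromatin proteins of dividing cells passed in 17 of 18 members in each library. Beside the counts of these lists, 18.3% of all genes were higher in pBIC10 and 10.4% in pBIC. Hmgb2 had 785.9 and 172.1 CPM in pBIC10 and 1197 and 124.0 CPM in pBIC.

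**Figure D3:**
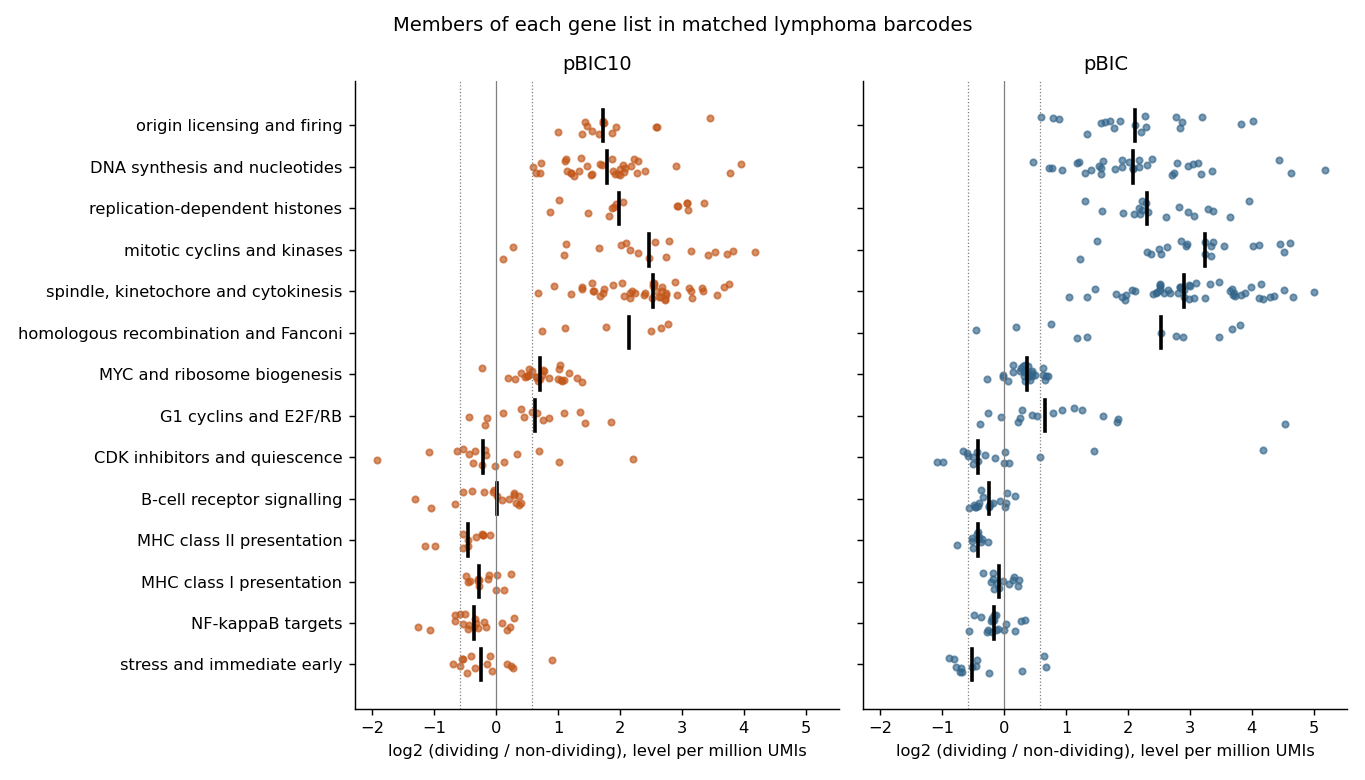
Log2 ratio of dividing to non-dividing matched barcodes (x axis) for each measured member (points) of 14 gene lists (rows), in pBIC10 and pBIC; black bars are medians and dotted lines mark 1.5-fold. All points of the licensing, histone and spindle lists lie right of the dotted line in both panels, and all MHC class II points lie left of 0.

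Genes of the G1 entry switch were mixed. Cyclin E1 (Ccne1) had 42.97 CPM in dividing and 15.80 CPM in non-dividing barcodes of pBIC10 (1.44, 1.10 to 1.798) and 57.76 and 19.01 CPM in pBIC (1.60, 1.29 to 1.93), and E2f1 had 14.83 and 5.78 CPM in pBIC10 and 35.07 and 9.78 CPM in pBIC. The cyclin D genes did not follow: Ccnd3 had 59.49 and 54.86 CPM in pBIC10 (0.12, -0.10 to 0.33) and 66.32 and 68.43 CPM in pBIC (-0.05, -0.25 to 0.16), and Ccnd2 had 14.68 and 19.87 CPM in pBIC10 (-0.44) and 161.2 and 192.8 CPM in pBIC (-0.26, -0.38 to -0.13). In the list, 7 of 14 members were higher in pBIC10 and 8 of 16 in pBIC, and none was lower by 1.5-fold. Of all genes, 18.3% were higher and 3.86% lower in pBIC10, and 10.4% and 5.68% in pBIC.

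CDK inhibitors and quiescence genes were split, with 3 higher and 3 lower of 16 in pBIC10 and 2 higher and 5 lower of 17 in pBIC. Of all genes, 18.3% were higher and 3.86% lower in pBIC10, and 10.4% and 5.68% in pBIC. The member furthest above 0 was Cdkn3, a mitotic phosphatase in spite of its name, at 2.22 and 4.19. Ypel3, a growth-suppressing gene, was lower in both, with 51.08 CPM in dividing and 108.7 CPM in non-dividing barcodes of pBIC10 (-1.09, -1.29 to -0.90) and 49.50 and 97.76 CPM in pBIC (-0.98, -1.19 to -0.78). Cdkn1a (p21) had 3.67 and 13.93 CPM in pBIC10 (-1.92, -2.65 to -1.25), and 8 and 10 UMIs in pBIC, too few for a ratio. Cdkn1b (p27) had 17.59 and 16.14 CPM in pBIC10 (0.12, -0.28 to 0.53) and 46.01 and 43.81 CPM in pBIC (0.07, -0.18 to 0.32). Cdkn2a, which encodes p16 and Arf, had 526.1 and 762.6 CPM in pBIC10 (-0.54, -0.60 to -0.47) and 276.6 and 275.2 CPM in pBIC (0.01, -0.09 to 0.11). Klf2, a quiescence factor of lymphocytes, went in opposite directions, with 147.9 and 73.55 CPM in pBIC10 (1.01, 0.84 to 1.18) and 170.4 and 241.7 CPM in pBIC (-0.50, -0.62 to -0.39).

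Homologous recombination and Fanconi genes were higher in 6 of 6 measured members in pBIC10 and 9 of 11 in pBIC, with median log2 ratios of 2.14 and 2.53. The shares over all genes were 18.3% higher and 3.86% lower in pBIC10, and 10.4% and 5.68% in pBIC. Targets of p53 had medians of 0.04 and 0.10, with 0 higher and 2 lower of 10 in pBIC10 and 2 higher and 1 lower of 9 in pBIC. The 2 higher ones were Gtse1, a protein of the mitotic spindle, and Ddb2, a damage sensor. In the BCL2 family none of 10 members passed 1.5-fold in pBIC10, while in pBIC the BH3-only gene Bid was higher (0.60) and Bbc3, a p53 target named Puma, was lower (-0.87).

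Growth genes differed between the libraries in size. MYC targets of ribosome biogenesis were higher in 18 of 27 members in pBIC10 (median 0.71, or 0.51 above the median of all genes) and 5 of 27 in pBIC (median 0.38, or 0.37 above). Of all genes, 18.3% were higher in pBIC10 and 10.4% in pBIC. In the list, 25 of the 27 had the larger log2 ratio in pBIC10. This count makes no allowance for the median gene, which was at 0.20 in pBIC10 and 0.01 in pBIC. Nucleolin (Ncl) had 1192 CPM in dividing and 528.6 CPM in non-dividing barcodes of pBIC10 (1.17, 1.11 to 1.23) and 906.5 and 565.2 CPM in pBIC (0.68, 0.62 to 0.75). Myc itself had 177.2 and 122.6 CPM in pBIC10 (0.53, 0.40 to 0.67) and 296.7 and 359.5 CPM in pBIC (-0.28, -0.37 to -0.19), opposite in sign and short of 1.5-fold in each. The ribosomal protein genes went the other way, taking 29.96% of UMIs in dividing and 35.76% in non-dividing barcodes of pBIC10 and 27.42% and 31.61% in pBIC, with 76 of 89 genes below 0 in pBIC10 and 77 of 89 in pBIC. With totals taken without these genes, 723 genes were higher in pBIC10.

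Among glycolysis genes Ldha, lactate dehydrogenase A, was higher in both, with 1266 CPM in dividing and 753.6 CPM in non-dividing barcodes of pBIC10 (0.75, 0.70 to 0.80) and 677.5 and 377.3 CPM in pBIC (0.85, 0.77 to 0.92). Of the list 2 of 15 members were higher in pBIC10, a share below the 18.3% of all genes, and 4 of 14 in pBIC, where 10.4% of all genes were. Oxidative phosphorylation genes had medians of 0.20 and 0.37, that is 0.002 below and 0.37 above the median of all genes, with 0 and 1 of 22 past 1.5-fold. In the unfolded protein response 4 of 18 members were higher and 1 lower in pBIC10, and 1 of 18 higher in pBIC, shares near or below the 18.3% and 10.4% of all genes. The chaperone partner Sdf2l1 was higher in both (0.96 and 0.68), and Ddit3 (CHOP), a death-linked stress factor, had 7.65 and 18.51 CPM in pBIC10 (-1.28, -1.79 to -0.78) and 15.87 and 17.74 CPM in pBIC (-0.16).

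The MHC class II presentation list was below 0 in all 11 members of both libraries (medians -0.45 and -0.43), although 2 of 11 were 1.5-fold lower in pBIC10 and 1 of 11 in pBIC, where 3.86% and 5.68% of all genes were. Without barcodes rich in other-type markers the medians were -0.34 and -0.44. Its sum was 15180 CPM in dividing and 21310 CPM in non-dividing barcodes of pBIC10 (-0.49, -0.50 to -0.48) and 16240 and 21080 CPM in pBIC (-0.38, -0.39 to -0.36). Per barcode the spread was wide, with medians of 14140 CPM (quartiles 9020 and 18680) in dividing and 21090 CPM (15070 and 26820) in non-dividing barcodes of pBIC10, and 15020 (9576 and 22480) and 20970 (14870 and 27530) in pBIC, so the classes overlapped. Cd74, the invariant chain, had 8823 and 12830 CPM in pBIC10 and 10970 and 14130 CPM in pBIC. The members that passed were both chains of H2-O, which restrains peptide loading in B cells: H2-Oa had 57.04 and 126.5 CPM in pBIC10 (-1.15, -1.33 to -0.97) and 94.09 and 133.6 CPM in pBIC (-0.51), and H2-Ob had 45.12 and 89.85 CPM in pBIC10 (-0.99) and 44.74 and 75.85 CPM in pBIC (-0.76, -0.98 to -0.54). MHC class I genes had 0 of 13 members past 1.5-fold in either library, with medians of -0.28 and -0.09.

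The signalling chains of the B-cell receptor were lower in pBIC10: Cd79a had 441.7 CPM in dividing and 919.6 CPM in non-dividing barcodes of pBIC10 (-1.06, -1.12 to -0.99) and 2098 and 2707 CPM in pBIC (-0.37, -0.40 to -0.33), and Cd79b had 361.2 and 571.4 CPM in pBIC10 (-0.66) and 857.1 and 1183 CPM in pBIC (-0.46). With Cd72, an inhibitory co-receptor at -1.30 and -0.23, they were the 3 of 17 members past 1.5-fold in pBIC10, and none of 17 passed in pBIC. Of all genes, 3.86% were lower in pBIC10 and 5.68% in pBIC. The list's median was 0.02 in pBIC10, or 0.19 below that of all genes, while its sum, which the abundant Cd79 chains carry, was lower (-0.39, -0.42 to -0.36). Syk, the kinase that binds the phosphorylated Cd79 chains, had 40.53 and 31.42 CPM in pBIC10 (0.37) and 146.6 and 173.2 CPM in pBIC (-0.24).

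Immunoglobulin transcripts, part of which chose the lymphoma barcodes, took 1.83% of UMIs in dividing and 1.57% in non-dividing barcodes of pBIC10 and 0.948% and 0.986% in pBIC. Igha had 889.2 and 797.1 CPM in pBIC10 (0.16) and Ighm had 944.2 and 1040 CPM in pBIC (-0.14). Plasma cell genes had 0 higher and 1 lower of 10 in pBIC10 and 0 higher and 2 lower of 8 in pBIC, and germinal centre genes had 1 higher and 4 lower of 13 in pBIC10 and 2 higher and 0 lower of 11 in pBIC, the one shared being the Polycomb enzyme Ezh2 (0.79 and 1.65). Beside these counts, 18.3% of all genes were higher and 3.86% lower in pBIC10, and 10.4% and 5.68% in pBIC. The germinal centre medians were -0.19 and -0.01, whereas the summed levels were higher in dividing barcodes, with log2 ratios of 0.17 and 0.13.

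**Figure D4:**
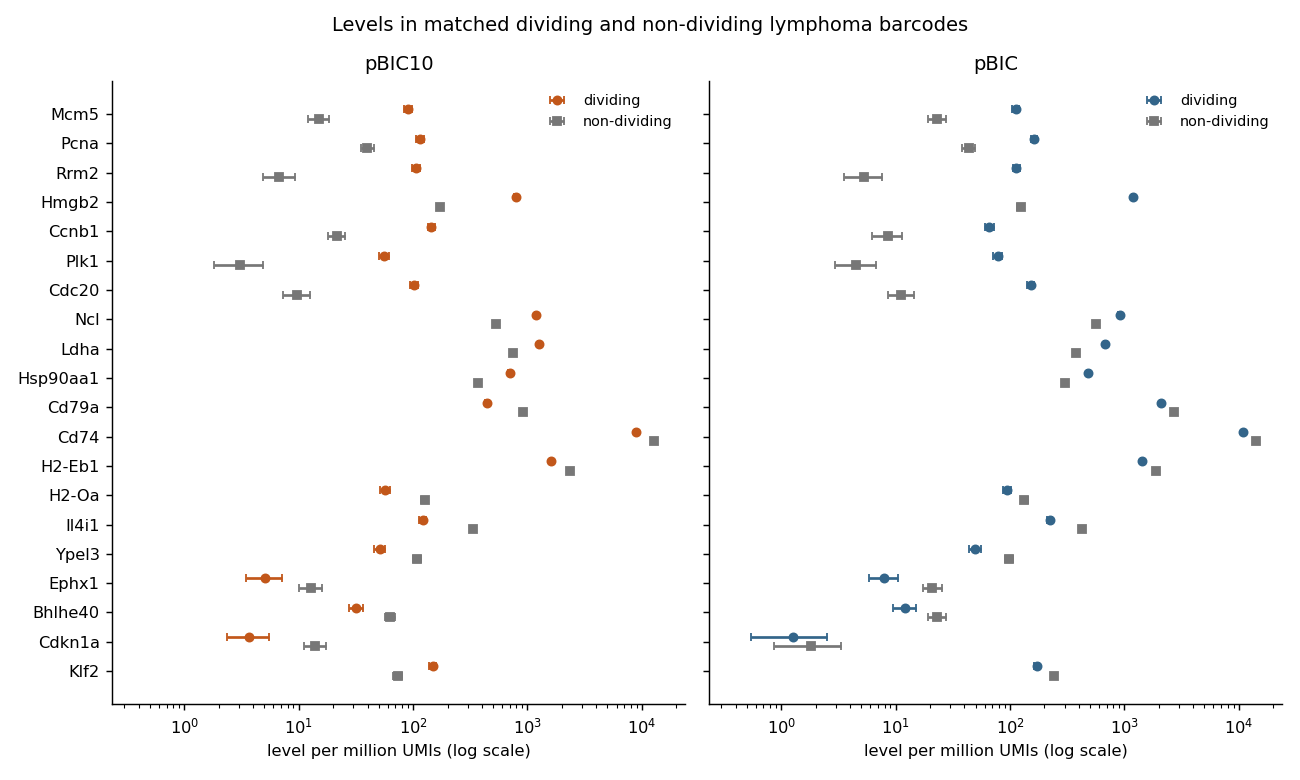
Level in CPM (x axis, log scale) of 20 genes in dividing (circles) and non-dividing (grey squares) matched barcodes of pBIC10 and pBIC; whiskers are exact Poisson intervals. Replication and mitosis genes at the top are higher in dividing barcodes, as for Plk1 at 55.51 against 3.06 CPM in pBIC10, and Cd79a, Cd74, H2-Oa, Il4i1 and Ypel3 are lower in both libraries.

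Of the measured NF-kappaB targets 0 of 19 were higher and 5 lower in pBIC10, where 3.86% of all genes were lower, with members from -1.27 to 0.29. In pBIC 0 were higher and 0 lower of 19, where 5.68% of all genes were lower. The chemokine Ccl22, which attracts regulatory T cells, had 112.4 CPM in dividing and 270.9 CPM in non-dividing barcodes of pBIC10 (-1.27, -1.40 to -1.14) and was present in 33.81% and 59.35% of them; in pBIC it had 30.62 and 25.34 CPM (0.27, -0.05 to 0.60), from 6.19% and 6.93% of barcodes. Ebi3, a cytokine subunit, had 93.44 and 197.0 CPM in pBIC10 (-1.08) and 60.45 and 53.40 CPM in pBIC (0.18). Of the co-stimulation and inhibitory ligands 3 of 12 were lower in pBIC10, namely Cd86, Cd70 and Tnfsf9, with members from -0.87 to 0.12, and 1 of 11 in pBIC, Tnfrsf14. Cd70, the CD27 ligand, had 115.5 and 189.7 CPM in pBIC10 (-0.72, -0.85 to -0.58). Cd274 (PD-L1) had 23.25 and 30.06 CPM in pBIC10 (-0.37, and -0.003 without the barcodes rich in other-type markers) and 59.18 and 87.26 CPM in pBIC (-0.56, -0.76 to -0.36).

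Il10, the cytokine named in the study's title, had 5 UMIs in dividing and 2 in non-dividing barcodes of pBIC10, too few for a ratio, and 26.50 and 33.31 CPM in those of pBIC (-0.33, -0.64 to -0.02). Its receptor chain Il10ra had 22.18 and 23.95 CPM in pBIC10 (-0.11, -0.46 to 0.23) and 18.41 and 30.41 CPM in pBIC (-0.73, -1.08 to -0.38), and Stat3 had 69.74 and 84.25 CPM in pBIC10 (-0.27) and 78.22 and 107.4 CPM in pBIC (-0.46). None of 11 members of the IL-10 and STAT3 list passed 1.5-fold in pBIC10, and 2 of 12 were lower in pBIC, Il10ra and Socs3. Over all genes 3.86% were lower in pBIC10 and 5.68% in pBIC, which also applies to the interferon and stress lists that follow. Interferon genes had 1 lower of 10 in pBIC10, Ifi27, and 1 lower of 14 in pBIC, Irf7. Stress and immediate early genes had 1 lower of 14 in pBIC10, Jun, and 6 lower of 13 in pBIC. The list's median was -0.25 in pBIC10 while its sum was higher (0.10). Jun had a log2 ratio of -0.70 in pBIC10 with all pairs and 0.01 without the barcodes rich in other-type markers. The AP-1 gene Jund had 472.3 and 598.2 CPM in pBIC10 (-0.34) and 212.3 and 350.1 CPM in pBIC (-0.72, -0.82 to -0.62). Hsp90aa1, a chaperone in the same list, was higher in both (0.91 and 0.68).

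Outside the lists, the 8 genes furthest above 0 in both libraries included Sapcd2, Cep55, Aunip, Trip13, Cenpp, Shcbp1 and Kifc1. Most are known from centromeres, spindles or cytokinesis: Cep55, an abscission factor, had 18.50 CPM in dividing and 2.04 CPM in non-dividing barcodes of pBIC10 and 37.29 and 2.53 CPM in pBIC, and Kifc1, a spindle motor, had 18.81 and 1.53 CPM in pBIC10 and 27.29 and 2.90 CPM in pBIC. The 8 furthest below 0 were Bhlhe40, Ly6i, Ephx1, Pla2g7, Il4i1, Lyz2, Apoe and S100a6. Il4i1, a secreted amino acid oxidase, had 121.1 and 331.7 CPM in pBIC10 (-1.45, -1.57 to -1.33) and 221.7 and 424.9 CPM in pBIC (-0.94, -1.04 to -0.84). Without barcodes rich in other-type markers its log2 ratios were -1.46 and -0.95. Ephx1, a microsomal epoxide hydrolase, had 5.05 and 12.74 CPM in pBIC10 (-1.34) and 7.93 and 21 CPM in pBIC (-1.40), and Bhlhe40, a transcription factor of activated lymphocytes, had log2 ratios of -0.97 and -0.93.

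Several of the 8 lower genes are abundant in macrophages and neutrophils, and in pBIC10 their values depended largely on the barcodes rich in other-type markers. In pBIC this held for Lyz2 but not for S100a6, and Pla2g7 stayed lower without those barcodes. Lyz2, Retnlg, S100a9, Prss34, Elane and Mcpt8 are other-type markers themselves. For them, leaving out those barcodes removes high counts partly by rule. Lyz2 had log2 ratios of -1.98 and -1.81 with all pairs and 0.04 and -0.07 without the barcodes rich in other-type markers, and Pla2g7 had -1.38 and -2.14 against -0.02 and -1.15. Apoe had -3.93 in pBIC10, where 84.18% of its UMIs came from 1 barcode, and -0.56 without the barcodes rich in other-type markers, and its sign turned with 20 UMIs of each clone segment (1.12) and after drawing 5000 UMIs (0.13). Ly6i, at -0.95 in pBIC10, also turned sign, to 0.12 without matching, 0.40 with barcodes weighted over bins of total UMIs in place of pairs, 0.30 after drawing 5000 UMIs and 0.01 without the barcodes rich in other-type markers. S100a6 moved to -0.17 in pBIC10 without those barcodes and to 0.25 after drawing 5000 UMIs, and had -2.63 and -0.83 under the same changes in pBIC, where it had 68.23 and 339.6 CPM with all pairs. The genes in no list that led in pBIC10 and did not pass 1.5-fold in pBIC were of the same kind: Prss34, Elane, Prtn3 and Mcpt8, granule proteases of myeloid cells, had at least 84.21% of their UMIs in 1 barcode, and of the lower ones Retnlg moved to -0.45 and S100a9 to -0.27 without the barcodes rich in other-type markers. Neither had a settled sign in pBIC10: Retnlg had 1.23 with 10 marker UMIs required and 1.78 after drawing 5000 UMIs, and S100a9 had 0.65 without matching, 2.20 with the weighted bins, 1.84 with 10 marker UMIs, 2.85 after drawing 5000 UMIs and 0.25 with 20 clone segment UMIs. In pBIC, Cdca4, Wdr76, Slc25a10 and Hist1h3f were higher and Ifitm3, Tph1, Calr4 and Cebpb lower without passing in pBIC10, where Hist1h3f, Tph1 and Calr4 had under 100 UMIs; Wdr76, a replication-linked protein, had 31.26 and 8.69 CPM in pBIC (1.85) and 9.79 and 7.47 CPM in pBIC10 (0.39), and Tph1, the enzyme of serotonin synthesis, had 9.04 and 29.51 CPM in pBIC (-1.71).

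The differences were graded along the marker count, taken over all lymphoma barcodes without matching. Across lymphoma barcodes with 0, 1, 2, 3 to 5, 6 to 10, 11 to 20 and over 20 marker UMIs, the mitotic list had 386.9, 433.6, 481.9, 709.3, 1281, 1528 and 2256 CPM in pBIC10, and 174.5, 223.8, 281.3, 602.8, 1184, 1532 and 2087 CPM in pBIC. The MHC class II list had 20980, 20420, 20580, 18010, 13620, 12750 and 12420 CPM in pBIC10, and 21080, 21160, 20870, 18160, 13330, 13180 and 11640 CPM in pBIC. Barcodes with 1 or 2 UMIs thus lay near those with 0 in the class II list, where most of the difference lay between 2 and 10 UMIs, while the mitotic list was higher in each group than in the one before it. Histones were highest in the last group, at 1612 CPM in pBIC10 and 5554 CPM in pBIC above 20 UMIs. These groups differed in depth, with medians of 12757 UMIs at 0 and 46469.5 above 20 in pBIC10 and 12933.5 and 29328 in pBIC. After drawing 5000 UMIs from each barcode, the groups were kept as set at full depth. The class II list was then 20530 CPM at 0 and 12790 above 20 in pBIC10, and 22190 and 12040 in pBIC. Drawing within fixed groups leaves their expected levels nearly unchanged, so this step cannot separate the marker count from depth.

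**Figure D5:**
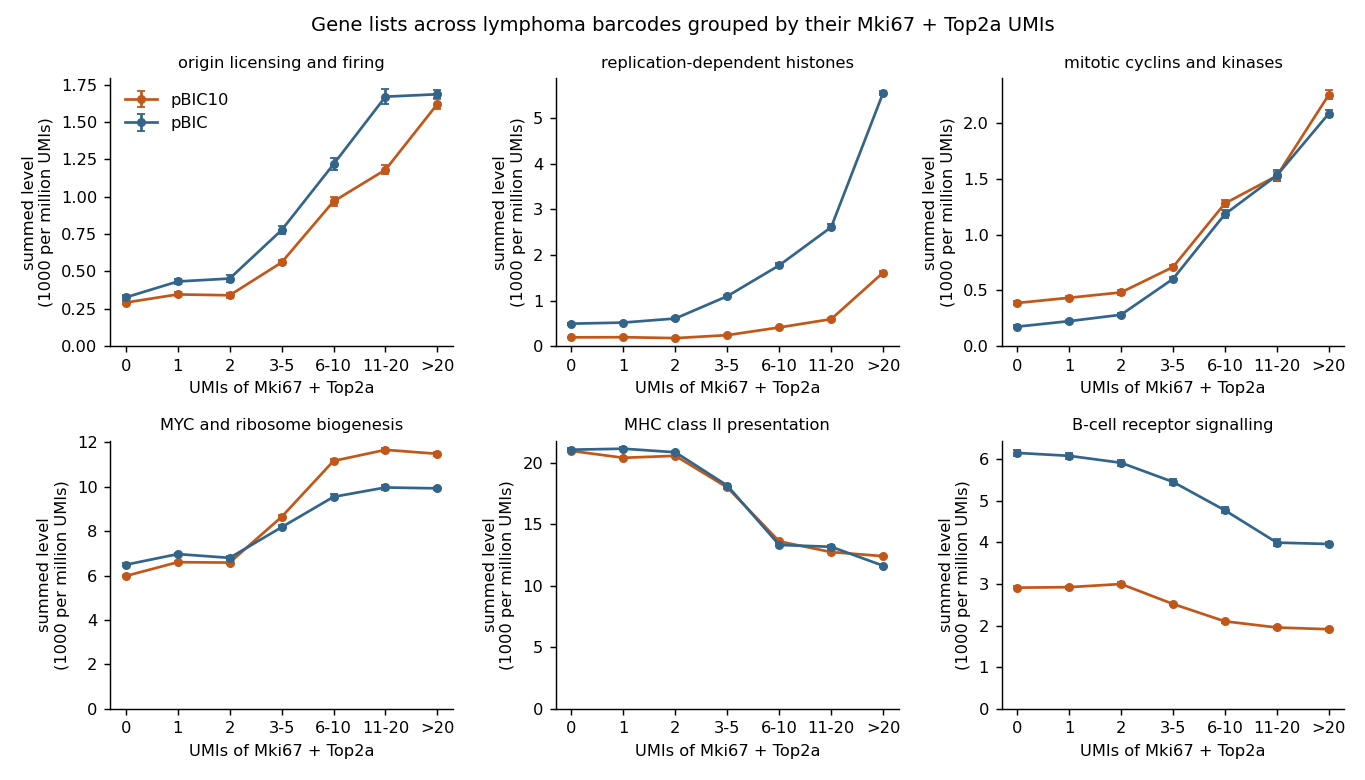
Summed level of 6 gene lists (y axis, in 1000 CPM) in lymphoma barcodes grouped by their Mki67 and Top2a UMIs (x axis), for pBIC10 and pBIC; whiskers are exact Poisson intervals. The licensing, histone, mitotic and ribosome biogenesis lists are higher and the MHC class II and B-cell receptor lists lower above 5 UMIs than at 0.

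Transcripts of both stages of the cycle were also counted in single barcodes. After drawing 5000 UMIs per barcode, 71.85% of dividing barcodes in pBIC10 and 71.61% in pBIC had at least 3 UMIs of both the DNA synthesis list and the list of mitotic cyclins and kinases, against 17.98% of non-dividing barcodes in pBIC10 and 6.12% in pBIC. Synthesis genes alone were present at that level in 18.66% of dividing barcodes in pBIC10 and 25.19% in pBIC, and mitosis genes alone in 2.49% and 0.534%. Non-dividing barcodes were not free of such transcripts: 41.80% in pBIC10 and 73.47% in pBIC had synthesis genes alone. Their medians were 3 synthesis UMIs in pBIC10 and 4 in pBIC, against 1 mitosis UMI in each. The lists thus differ in base level, and the cutoff of 3 UMIs does not assign a barcode to a stage. Over all non-dividing lymphoma barcodes, without matching, the mitotic list had 386.9 CPM in pBIC10 and 174.5 CPM in pBIC. T cells without marker UMIs of the same libraries had 186.7 and 172.0 CPM. Free RNA adds to such levels in all barcodes, and its part was not tested.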

How the data were processed

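The deposited matrices give raw UMI counts, with no scaling by the authors. The aligner was Cell Ranger, version 3.0.1 on build GRCm39 per the submitters' processing notes and version 5.0.1 per the file headers, and which of them applies is not given in the sources used here. No column belonged to another series (0). The gene lists and the rule for members were chosen with earlier results of these data known. Barcodes needed at least 200 genes and under 10% mitochondrial UMIs, which kept 14667 in pBIC10 and 17871 in pBIC, with medians of 5458 and 6235 UMIs over all deposited barcodes.

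Each dividing barcode, from the deepest down, took the nearest unused non-dividing barcode of its library within 0.2 log2 units of total UMIs. Counts were summed over the pairs and divided by the summed totals. Genes with at least 100 UMIs over both classes were measured, and a gene was called at 1.5-fold in either direction, Mki67 and Top2a excepted. Intervals are exact Poisson for levels, Clopper-Pearson for shares and conditional binomial for ratios. The calculation was tested on simulated data. Genes named in the text were up to 4 per list with the largest mean log2 ratio of the same sign in both libraries; the 8 genes in no list furthest from 0 in both libraries, per direction; the 4 per library and direction that did not pass in the other; and 22 fixed names. Other list members are named after their values were seen, where a count or a contrast rested on them. Some genes that the rule names are not reported here. Scrublet in scanpy marked 367 barcodes of pBIC10 and, at the pBIC10 threshold of 0.3101 because its own threshold called 0, 440 of pBIC; marked barcodes were kept, with 6 and 7 among the matched dividing and non-dividing barcodes of pBIC10 and 2 and 7 in pBIC. Alternatives numbered 19, of which 3 were added after the data had been seen. Python 3.11.15, numpy 2.4.6, scipy 1.17.1, pandas 2.3.3, scanpy 1.11.5 and matplotlib 3.10.9 were used.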

Additional observations from a re-analysis of the deposited data

Results flagged for a closer look

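Cxcl10 and Retnlg passed 1.5-fold in opposite directions in the libraries, a difference that was not tested. Cxcl10, an interferon-induced chemokine, had 25 UMIs in dividing and 119 in non-dividing barcodes of pBIC10 (log2 ratio -2.40), and 84 and 46 UMIs in pBIC (0.68). Without the barcodes rich in other-type markers its log2 ratio was 0.39 in pBIC10 and 1.03 in pBIC. Retnlg, a neutrophil gene, had 44 and 542 UMIs in pBIC10 (-3.77) and 278 and 116 UMIs in pBIC (1.07), and a single barcode held 55.63% of them in pBIC10 and 43.15% in pBIC. Without the barcodes rich in other-type markers Retnlg had -0.45 in pBIC10 and -0.38 in pBIC, but Retnlg is one of these markers.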

How the results depend on the processing

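No paired analysis was possible because each genotype had 1 library. List medians stayed within the median counting interval of their members in 403 of 458 recalculations in pBIC10 and 453 of 485 in pBIC, and 0 changed sign past the call in either. Regardless of size, the sign was kept in 430 of the 458 and 472 of the 485. Of the recalculated values of named genes, 1961 of 2575 in pBIC10 and 2138 of 2632 in pBIC stayed within their interval, while 24 and 6 reversed. The cause of each change below was not tested, other than fewer barcodes or genes where stated.

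The share of dividing barcodes was 25.77% in pBIC10 and 36.19% in pBIC with 5 marker UMIs required, 14.33% and 24.45% with 10, 10.75% and 28.17% after drawing 5000 UMIs, and 44.29% and 54.28% with 20 UMIs of each clone segment. Against 1354 higher and 286 lower genes in pBIC10, there were 2395 higher without matching, 504 lower with weighted bins, 815 and 488 with TMM, 863 and 450 with median-of-ratios scaling, 505 and 112 after drawing 5000 UMIs (177 pairs, 2399 genes), 451 lower from 50 UMIs, 2839 and 1703 from 1 UMI in each class, 362 and 81 at 2-fold, and 723 higher with totals without ribosomal protein genes. Leaving out every barcode with 3 other-type UMIs left 3 pairs, with 11 higher and 55 lower genes of 93. Other-type markers include Cd8b1, which was present in 92.09% of matched dividing and 97.48% of matched non-dividing barcodes of pBIC10. That filter therefore also takes out barcodes for Cd8b1 alone. Against 824 higher and 452 lower genes in pBIC, there were 1274 higher without matching, 1392 and 869 with weighted bins, 726 lower with 5 and 720 lower with 10 marker UMIs, 485 and 231 without barcodes with 3 other-type UMIs (122 pairs), 704 lower from 50 UMIs, 1781 and 2062 from 1 UMI in each class, and 374 and 70 at 2-fold.

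Reversed log2 ratios were in pBIC10 Ly6i 0.118 and S100a9 0.649 without matching; Cstdc4 1.755, Ly6i 0.395, S100a9 2.204 and Tent5c 0.399 with weighted bins; Cstdc4 3.879, Retnlg 1.229, S100a9 1.84 and Tent5c 0.517 with 10 marker UMIs; Apoe 0.126, Cstdc4 1.354, Jun 0.074, Ly6i 0.3, Retnlg 1.778, S100a6 0.249 and S100a9 2.851 after drawing 5000 UMIs. With 20 UMIs of each clone segment they were Apoe 1.123, Cstdc4 0.726 and S100a9 0.246, and without barcodes of 50 other-type UMIs Cxcl10 0.392, Jun 0.009, Ly6i 0.011 and Lyz2 0.042. In pBIC they were Retnlg -0.21 with weighted bins, -0.279 with totals without immunoglobulin genes and -4.455 with 20 clone segment UMIs, Ifitm3 0.482 and Lyz2 0.156 without barcodes with 3 other-type UMIs, and Lyz2 0.47 after drawing 5000 UMIs.

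Depth limits the comparison most for genes under 100 UMIs, such as Il10 in pBIC10, and for the share of dividing barcodes, which moves with depth. Intervals cover counting error, not the spread between mice, sorts or libraries.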

Other observations

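Cd8b1 was detected in 92.09% of matched dividing and 97.48% of matched non-dividing barcodes of pBIC10 although none carried a Cd3e UMI, against 5.20% and 5.45% in pBIC. Its log2 ratio in pBIC10 was -0.77 with all pairs and -0.75 without the barcodes rich in other-type markers. Cd8b1 is itself one of these markers, so the barcodes left out were chosen partly by its own counts. Cd3g had 51.23 CPM in dividing and 86.11 CPM in non-dividing barcodes of pBIC10, and 27.93 and 33.31 CPM in pBIC. TCR contigs were attached to 1 of 654 dividing and 0 of 493 non-dividing lymphoma barcodes of pBIC10, and to 2 of 946 and 0 of 404 in pBIC.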
